A study of Mus musculus with 4 samples.

Results

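RNA signals in 4 mouse stem cell cultures are described here for 37 genes of glucose transport, glycolysis, lactate and pyruvate handling and the pentose phosphate branch. These signals do not measure glucose use itself. The genes were taken by name as enzymes and transporters of these steps. Of the 37, 34 were measured among 18194 genes on the arrays. Gpi1 (glucose-6-phosphate isomerase), Eno1 (an enolase) and G6pdx (glucose-6-phosphate dehydrogenase) had no probe set annotated to them alone and were not analysed here. Of the 34 measured genes, 29 were above the background floor on all 4 arrays, 4 were under it on some arrays and Pgk2 was under it on all of them.

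Each of 4 cultures was measured once on an Affymetrix expression array. Germline stem (GS) cells, the first, are cultured spermatogonial stem cells. The second, multipotent germline stem (mGS) cells, derive from such cultures and resemble embryonic stem cells. Embryonic stem (ES) cells were of the R1 line. The fourth culture was GS cells of Trp53 knockout mice, called knockout GS below, whose label also names ICR, and the strains of the GS and mGS cells are not given in the labels. GS and knockout GS cells grew in a medium built on StemPro, whereas mGS and ES cells grew in ordinary ES cell medium, so cell type and medium cannot be told apart. The study sought molecules by which a GS culture converts to mGS cells. With 1 array per group no difference has a replicate check, no test was possible, and differences are described by size only.

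Glycolysis splits glucose into pyruvate, which is either reduced to lactate and exported or passed to the mitochondria through the pyruvate dehydrogenase complex. The pentose phosphate branch diverts glucose 6-phosphate to make NADPH and the ribose of nucleotides. Embryonic stem cells are known for a high rate of glycolysis, and male germ cells are known for isozymes of their own at several of these steps, some of them autosomal copies that stand in for X-linked genes.

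Several properties of the arrays bear on what follows. The dap poly-A control, added before labelling, had a median signal of 271 on GS and 255 on mGS but of 2545 on ES and 3055 on knockout GS. The bioC hybridisation control read 602 on the knockout GS array and 3066 to 3499 on the others. The summed signal of 8 pluripotency markers was 77312 on mGS and 65476 on ES against 4823 on GS and 4656 on knockout GS, and that of 8 spermatogonial markers was 57968 on GS and 57089.9 on knockout GS against 8186 on mGS and 6197 on ES. Of the latter markers Etv5 went the other way, at 1955 on GS, 507 on knockout GS, 6360 on mGS and 4617 on ES. The close sums of GS and knockout GS do not hold for each marker. Etv5, Gfra1 and Ret, 3 of the 8, were 3.85-fold, 2.39-fold and 2.83-fold lower on knockout GS than on GS, and none was 2-fold higher. Among all genes compared, 6.93% were at least 2-fold lower. Of 10 fibroblast markers, 4 were above the floor on GS, 6 on knockout GS, 5 on mGS and 9 on ES, with sums of 947, 1744, 2401 and 24152. Lum was under the floor on all 4 arrays and Dcn on all but ES. On mGS Tagln was at least 14.0-fold and Col1a2 2.22-fold higher than on GS, and none of the fibroblast markers was 2-fold lower. The part of these differences in the results was not tested. In such bulk RNA, fewer cells of a type and less RNA per cell cannot be told apart. Signals are quantile-normalized intensities with an array median of 82.7, which served as the floor. A signal under it was raised to it, which makes the difference a bound. Levels of different genes come from different probe sets and are not compared with each other.

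Promoter windows of 300 bases, from 250 before to 50 after the annotated start, are shown for 4 genes on which the results turn. Ldha, Pgk1 and Pfkl were much higher on mGS and ES, and Tktl1 was much lower there. The sequences are RefSeq's on build GRCm38.p6. Capitals mark ACGTG, a form of the core of the hypoxia response element, and the GC box GGGCGG. Each is marked on either strand, and on the other strand they read CACGT and CCGCCC. The form GCGTG of that core was not searched for and is left unmarked. The windows are chr7:46845554-46845853 (plus strand) for Ldha, chrX:106186850-106187149 (plus strand) for Pgk1, chr10:78009758-78010057 (minus strand) for Pfkl and chrX:74177009-74177308 (plus strand) for Tktl1, each written 5′ to 3′ on the strand of its gene.
Ldha: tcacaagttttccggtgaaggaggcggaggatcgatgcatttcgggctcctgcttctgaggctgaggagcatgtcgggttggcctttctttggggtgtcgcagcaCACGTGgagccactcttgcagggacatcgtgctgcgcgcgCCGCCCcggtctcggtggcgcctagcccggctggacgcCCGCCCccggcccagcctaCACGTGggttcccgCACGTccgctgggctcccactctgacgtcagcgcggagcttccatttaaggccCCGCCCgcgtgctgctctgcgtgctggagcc
Pgk1: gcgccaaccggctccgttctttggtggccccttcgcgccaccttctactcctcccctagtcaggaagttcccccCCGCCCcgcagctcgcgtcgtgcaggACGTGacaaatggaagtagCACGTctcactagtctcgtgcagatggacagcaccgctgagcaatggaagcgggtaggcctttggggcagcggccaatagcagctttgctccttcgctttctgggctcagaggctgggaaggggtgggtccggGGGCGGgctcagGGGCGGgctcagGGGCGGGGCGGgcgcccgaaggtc
Pfkl: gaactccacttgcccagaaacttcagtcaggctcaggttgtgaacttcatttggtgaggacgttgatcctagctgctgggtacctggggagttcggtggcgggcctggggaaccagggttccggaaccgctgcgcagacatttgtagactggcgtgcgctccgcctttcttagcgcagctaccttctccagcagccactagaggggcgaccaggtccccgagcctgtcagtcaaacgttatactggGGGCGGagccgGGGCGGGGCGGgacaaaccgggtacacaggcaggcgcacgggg
Tktl1: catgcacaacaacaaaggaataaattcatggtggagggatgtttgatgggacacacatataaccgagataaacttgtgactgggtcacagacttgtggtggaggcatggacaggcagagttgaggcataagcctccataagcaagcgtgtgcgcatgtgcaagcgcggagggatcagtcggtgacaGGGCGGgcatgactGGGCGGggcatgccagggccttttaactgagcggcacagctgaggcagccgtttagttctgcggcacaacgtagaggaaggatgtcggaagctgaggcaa

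Ldha had 2 windows, and the 1 printed was chosen for holding more ACGTG. It held ACGTG 5 times and the GC box 3 times, and the other window of Ldha held neither. All but 1 of these ACGTG matches lie in 2 copies of the E-box CACGTG, which holds ACGTG on both strands. In the Pgk1 window ACGTG occurred 2 times and the GC box 5 times. Neither the Pfkl nor the Tktl1 window held ACGTG, and they held the GC box 3 and 2 times. The letters GCGTG, which were not counted, can be read in the Pfkl, Tktl1 and Ldha windows printed. The absence of ACGTG therefore does not show that a window lacks the hypoxia core. Of the 37 genes, 36 had at least 1 of 51 windows, and Slc2a3 had none. ACGTG was found in 37.3% of these windows and in 20.9% of the 21263 windows of all protein-coding genes, the E-box in 7.84% and 7.84%, and the GC box in 58.8% and 46.2%. The median number of CpG was 20 in the windows of the 37 genes and 13 in all windows. A match describes these letters only, and some genes have several overlapping windows.

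On the mGS array 12 of the 33 genes that could be compared were at least 2-fold higher than on GS, against 15.3% of all genes compared, and 4 were at least 2-fold lower, against 16.5% of all genes. The 12 were Slc2a1, Slc2a3, Pfkl, Pfkp, Aldoa, Tpi1, Pgk1, Ldha, Pdha1, Slc16a3, Tkt and Rpe, and the 4 were Aldoc, Pdk3, Tktl1 and Rpia. The median log2 difference was 0.74 for the 33 genes and -0.04 for all genes. On the ES array 14 of 32 were at least 2-fold higher than on GS, against 17.4% of all genes, and 5 were at least 2-fold lower, against 17.2%. The higher ones were Slc2a1, Slc2a3, Pfkl, Pfkp, Aldoa, Tpi1, Pgk1, Eno3, Ldha, Pdk1, Pdha1, Slc16a3, Tkt and Rpe, and the lower ones Aldoc, Ldhc, Pdk3, Tktl1 and Rpia. The median was 0.78 for the 32 genes and -0.03 for all genes. Both comparisons use the 1 GS array, so they are not independent of each other. The differences given by probe sets of one gene had a standard deviation on the log2 scale of 0.50 for mGS against GS and 0.61 for ES against GS. This measures how far probe sets disagree and holds no variation between repeated cultures or arrays. Fibroblast markers moved with ES, where all 9 that could be compared were at least 2-fold higher than on GS, against 2 of 5 on mGS, and their part was not tested.

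**Figure D1:**
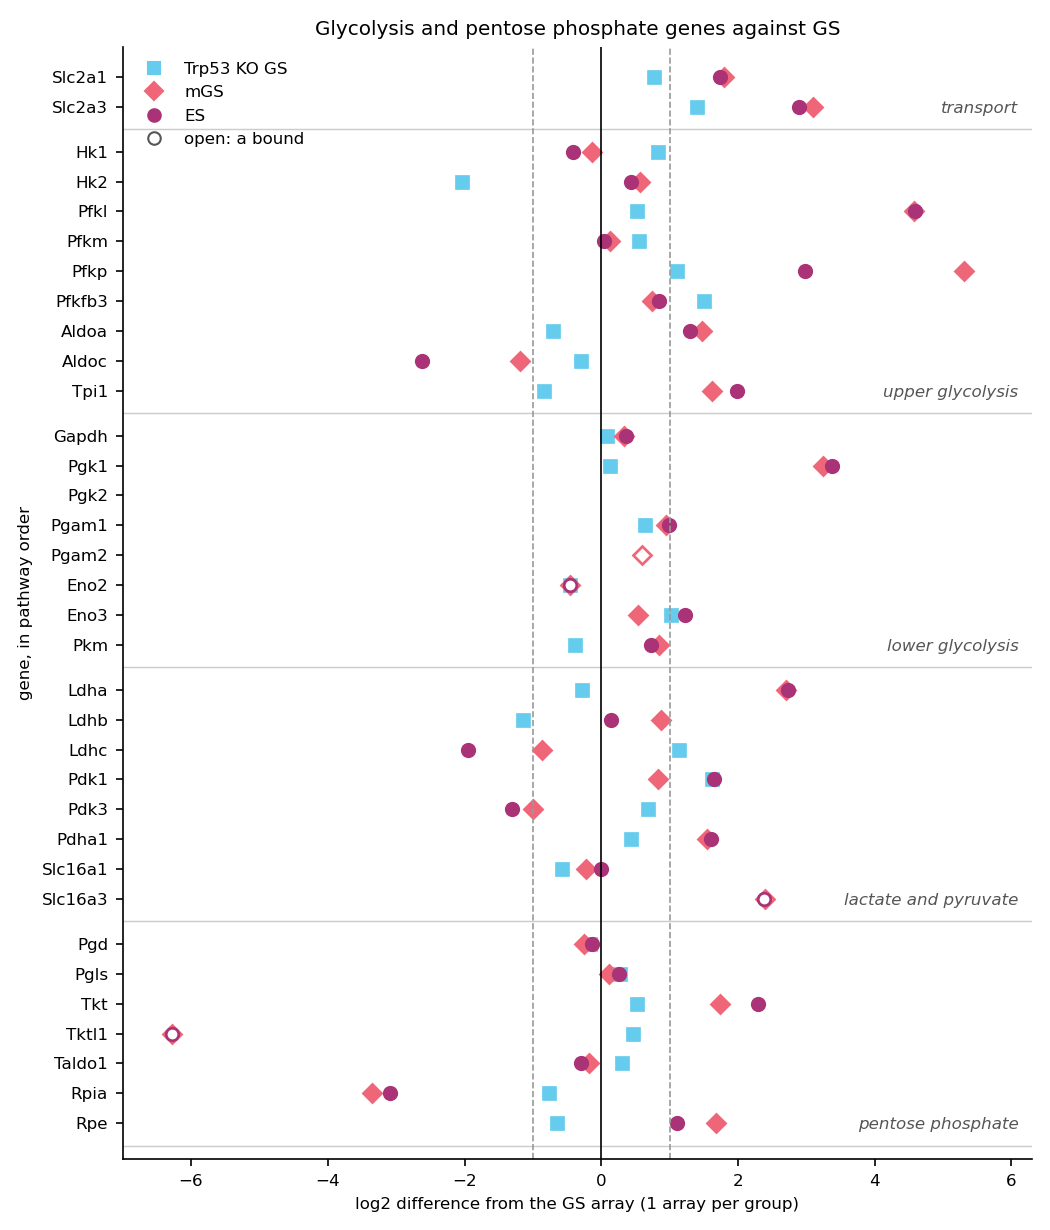
Log2 difference of each gene from the GS array, with genes from top to bottom in pathway order; squares are knockout GS, diamonds mGS and circles ES, 1 array each, open symbols are bounds and dashed lines mark 2-fold. Transport, Pfkl, Pfkp, Pgk1 and Ldha lie far to the right for mGS and ES, and Tktl1 and Rpia lie far to the left; Pgk2 was under the floor on all arrays and has no point.

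Both glucose transporters were higher on mGS and ES. Slc2a1, the widely expressed transporter GLUT1, had a signal of 3217 on GS, 5473 on knockout GS, 11112 on mGS and 10726 on ES. It was 3.45-fold higher on mGS than on GS and 3.33-fold higher on ES. Slc2a3, the high-affinity transporter GLUT3, read 1648 on GS, 4359 on knockout GS, 14099 on mGS and 12214 on ES, which is 8.56-fold and 7.41-fold above GS. For both genes the GS array was the lowest, knockout GS came next, and mGS and ES lay above both. All 4 probe sets of Slc2a3 were higher on mGS than on GS, by 8.56-fold to 18.1-fold.

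Hexokinase phosphorylates the glucose that enters, and its genes differed little between GS, mGS and ES. Hk1 read 947 on GS, 1689 on knockout GS, 860.2 on mGS and 712 on ES, and Hk2, the form of insulin-sensitive tissues, read 3763, 919, 5569.6 and 5068 in the same order. Neither reached 2-fold on mGS or ES against GS. The knockout GS array stood apart for both, with the highest Hk1 and the lowest Hk2.

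The phosphofructokinases, which commit the sugar to glycolysis, held the largest upward differences. Pfkl, the liver-type subunit, had a signal of 121 on GS, 173 on knockout GS, 2867 on mGS and 2917 on ES, 23.7-fold higher on mGS than on GS and 24.1-fold higher on ES. The pairs of arrays were far apart: the lower of mGS and ES was 16.6-fold above the higher of GS and knockout GS. Pfkp, the platelet-type subunit, read 209.6 on GS, 451 on knockout GS, 8254 on mGS and 1658 on ES. It was 39.4-fold higher on mGS than on GS and 7.91-fold higher on ES, and ES and mGS themselves differed by 4.98-fold. By contrast Pfkm, the muscle-type subunit, read 891, 1312, 974 and 919 on GS, knockout GS, mGS and ES, with the highest value on knockout GS and all 4 within 2-fold. Pfkfb3, which makes the activator fructose 2,6-bisphosphate, was near the floor on GS at 86.2, and read 244 on knockout GS, 144 on mGS and 154 on ES.

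Of the aldolases, which split the phosphorylated sugar, Aldoa and Aldoc differed in opposite directions. The signal of Aldoa, the muscle and general form, was 6144 on GS, 3781 on knockout GS, 17091 on mGS and 15074 on ES, 2.78-fold and 2.45-fold above GS. All 5 of its probe sets are of a kind that may bind other transcripts. Of these, 1 gave 1.14-fold for mGS against GS and the other 4 gave 2.78-fold to 3.45-fold. Aldoc, the brain-type form, read 2758 on GS, 2254 on knockout GS, 1206 on mGS and 449.6 on ES. It was 2.29-fold lower on mGS than on GS and 6.13-fold lower on ES, and its other probe set was under the floor on all arrays. Tpi1, triose phosphate isomerase, read 2297, 1282, 7065 and 9081 on GS, knockout GS, mGS and ES, so that both arrays in ES medium were above both in GS medium.

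**Figure D2:**
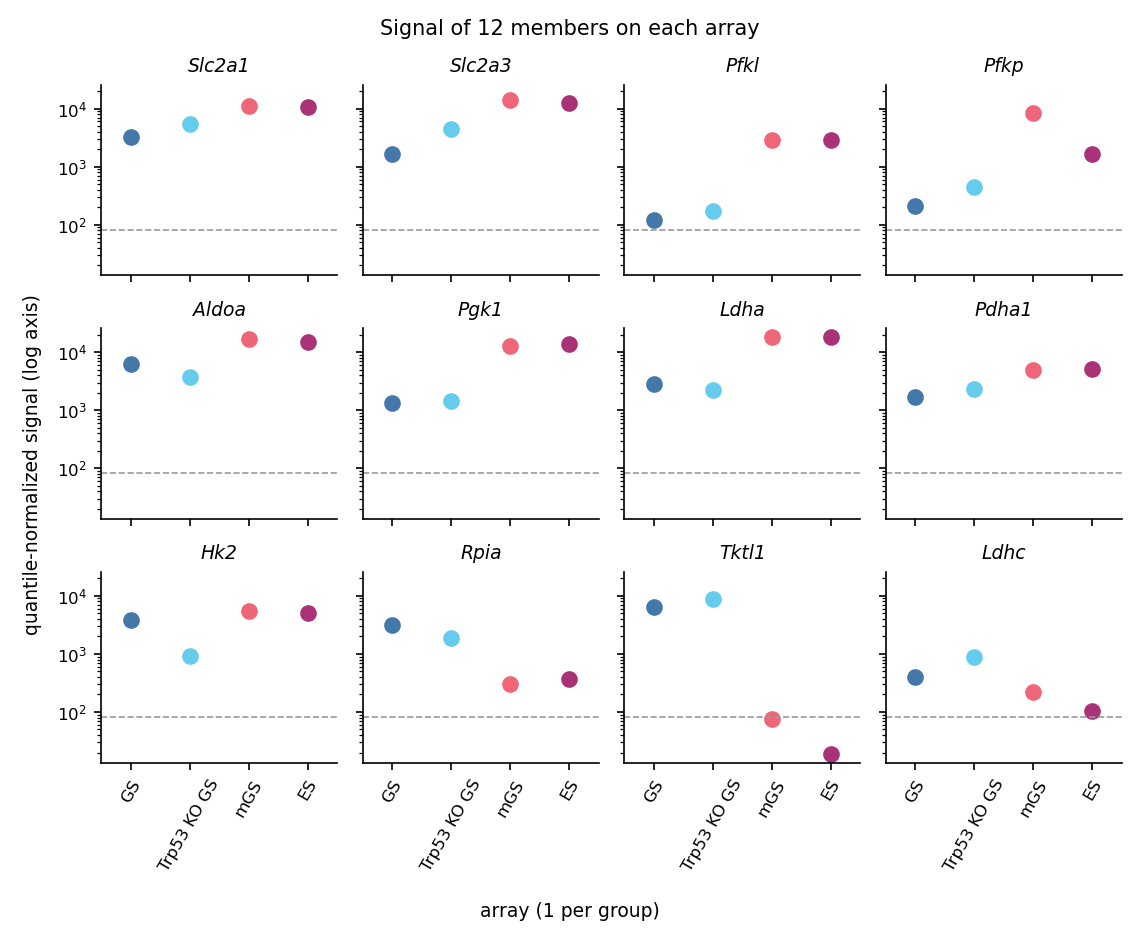
Quantile-normalized signal (log axis) of 12 genes on the GS, knockout GS, mGS and ES arrays, 1 point per array; the dashed line is the floor of 82.7. For Slc2a1, Slc2a3, Pfkl, Pfkp, Aldoa, Pgk1, Ldha and Pdha1 the mGS and ES points lie above the GS and knockout GS points, for Rpia, Tktl1 and Ldhc they lie below, and for Hk2 the knockout GS point is the lowest.

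In the lower part of glycolysis Pgk1 stood out. Pgk1, the X-linked phosphoglycerate kinase that makes the first ATP of the pathway, read 1339 on GS, 1469 on knockout GS, 12739.6 on mGS and 13868 on ES. It was 9.52-fold higher on mGS than on GS and 10.4-fold higher on ES, and its 3 probe sets gave 9.52-fold to 23.1-fold for mGS. Gapdh, the dehydrogenase just before it, was measured through the array's own Gapdh control probe sets and read 28727 on GS, 30402 on knockout GS, 36141 on mGS and 36999 on ES. All 4 signals lay within 1.29-fold of GS. Pgam1, the phosphoglycerate mutase of most tissues, read 6113, 9542, 11828 and 12148 on GS, knockout GS, mGS and ES. It was just under 2-fold, at 1.93-fold for mGS and 1.99-fold for ES against GS.

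Of the other genes of the lower part, Pkm and Eno3 differed by less than 2-fold between mGS and GS. Pkm, pyruvate kinase, read 9184 on GS, 7028 on knockout GS, 16537 on mGS and 15184 on ES, 1.80-fold and 1.65-fold above GS, and its M1 and M2 splice forms were not analysed here. Eno3, the muscle enolase, read 357 on GS, 724 on knockout GS, 519 on mGS and 829.6 on ES, with GS the lowest and ES and knockout GS more than 2-fold above it. Eno2, the neuronal enolase, was above the floor on GS alone at 113, and Pgam2, the muscle mutase, on mGS alone at 125. Their differences of mGS from GS are therefore bounds, at least 1.37-fold lower for Eno2 and at least 1.51-fold higher for Pgam2. Pgk2, the kinase of meiotic and later male germ cells, read at most 17.4 on any array, under the floor.

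At the lactate step the general and the testis isozymes parted. Ldha, the muscle-type lactate dehydrogenase subunit that favours lactate formation, read 2776 on GS, 2274 on knockout GS, 18075 on mGS and 18368 on ES. That is 6.51-fold higher on mGS than on GS and 6.62-fold higher on ES, and mGS and ES differed by 1.02-fold. Ldhb, the heart-type subunit, read 2090.2 on GS, 943 on knockout GS, 3845 on mGS and 2315 on ES, so ES was close to GS and knockout GS was the lowest. The testis subunit Ldhc had a signal of 406 on GS, 895 on knockout GS, 223 on mGS and 105 on ES. It was 1.82-fold lower on mGS than on GS and 3.87-fold lower on ES, and knockout GS was the highest of the 4. The other probe set of Ldhc was 3.56-fold lower on mGS than on GS and at least 4.95-fold lower on ES. Slc16a3 (MCT4), a lactate exporter, was under the floor on GS at 52.5 and on knockout GS at 30.2, and read 434 on mGS and 429.5 on ES, at least 5.26-fold and 5.20-fold higher than GS. Slc16a1 (MCT1), the more widely expressed carrier, read 5672, 3823, 4841 and 5635 on GS, knockout GS, mGS and ES and stayed within 2-fold on all arrays.

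Pyruvate dehydrogenase and its kinases differed in both directions. Pdha1, the X-linked E1 alpha subunit, read 1699.5 on GS, 2295 on knockout GS, 4939.7 on mGS and 5192 on ES, 2.91-fold and 3.06-fold above GS. Pdk3, an X-linked kinase that switches the complex off, read 2579 on GS, 4153 on knockout GS, 1287 on mGS and 1047 on ES. Its difference on mGS lay at the 2-fold threshold, past it in 9 of 12 alternative settings, and on ES it was 2.46-fold lower than on GS. Pdk1, the kinase known as a target of the hypoxia factor, read 1529 on GS, 4721 on knockout GS, 2722 on mGS and 4794 on ES, with knockout GS and ES the highest. Its 4 probe sets disagreed, since for ES against GS the chosen one was 3.14-fold higher while another was 2.05-fold lower.

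Among the pentose phosphate genes some were higher on mGS and ES, some lower and some level. In the oxidative part, Pgd (6-phosphogluconate dehydrogenase) read 7351 on GS, 6558 on knockout GS, 6167 on mGS and 6706 on ES. Pgls (6-phosphogluconolactonase) read 1188, 1433, 1283 and 1422 in the same order. Both stayed within 1.21-fold of GS. In the non-oxidative part, Tkt, the general transketolase, read 4233 on GS, 6069.8 on knockout GS, 14079.6 on mGS and 20793.5 on ES, 3.33-fold and 4.91-fold above GS. Rpe, ribulose phosphate epimerase, read 1458, 928, 4666 and 3134, and was 3.20-fold higher on mGS and 2.15-fold higher on ES than on GS. For both genes each array in ES medium lay above each array in GS medium.

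Rpia and Tktl1 went the other way. Rpia, the isomerase that makes ribose 5-phosphate, read 3142 on GS, 1856 on knockout GS, 307 on mGS and 369 on ES, 10.2-fold lower on mGS than on GS and 8.53-fold lower on ES. So Rpe and Rpia, which act on the same ribulose 5-phosphate, differed in opposite directions, Rpia through its only probe set. Tktl1, an X-linked transketolase-like gene, read 6408 on GS and 8859 on knockout GS and, on the probe set used, was under the floor on mGS at 76.0 and on ES at 19.0. Through this probe set it was at least 77.5-fold lower on both. A second probe set read 5416 on GS and 119 on mGS, above the floor, which is 45.6-fold lower, and was at least 65.5-fold lower on ES. The third, with a lower signal, was at least 4.06-fold lower on both. Taldo1, transaldolase, read 6204, 7659, 5504 and 5038 on GS, knockout GS, mGS and ES and differed from GS by at most 1.23-fold.

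Where a step has a general and a germ cell form, they were set side by side as differences from GS. For lactate dehydrogenase the log2 difference of mGS from GS was 2.70 for Ldha and -0.87 for Ldhc, and that of ES was 2.73 and -1.95. For transketolase it was 1.73 for Tkt and at most -6.28 for Tktl1 on mGS, and 2.30 and at most -6.28 on ES, with -5.51 for Tktl1 on mGS by its second probe set. For the E1 alpha subunit it was 1.54 for Pdha1 on mGS and 1.61 on ES, and at most -3.75 on both for Pdha2, the autosomal testis copy. Pdha2 read 1116 on GS and 873 on knockout GS and was under the floor on mGS at 26.3 and on ES at 18.2. In these 3 steps the general form named was higher and the germ cell form lower on mGS and ES. Ldhb, the other general lactate dehydrogenase subunit, had log2 differences from GS of 0.88 on mGS and 0.15 on ES. At the mutase step both forms were higher on mGS than on GS, Pgam1 by 0.95 and Pgam2 by at least 0.59. For Ldhc on mGS the difference was under 2-fold by the probe set used and 3.56-fold by its other one. The sperm forms Pgk2, Gapdhs and Aldoart1 and the germ cell copy G6pd2 were under the floor on all arrays, so no pair could be formed for them. Eno4, an enolase of sperm, read 187 on GS, 347 on knockout GS, 94.96 on mGS and 58.5 on ES, without Eno1 to set it against. Tktl2, a transketolase-like gene, was above the floor on knockout GS alone, at 317, at least 3.84-fold higher than on GS. Of 9 markers of meiosis and spermatids, Prm2, Tnp1, Acrv1 and Odf1 were under the floor on all arrays. The meiotic Sycp3 read 4873 on GS, 12488.5 on knockout GS, 139 on mGS and 373 on ES, and Sycp1 7563, 2732, 181 and 61.8. The whole list summed to 12799 on GS, 15604 on knockout GS, 566 on mGS and 655 on ES, most of it from these 2 genes on GS and knockout GS, and its part in these differences was not tested.

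**Figure D3:**
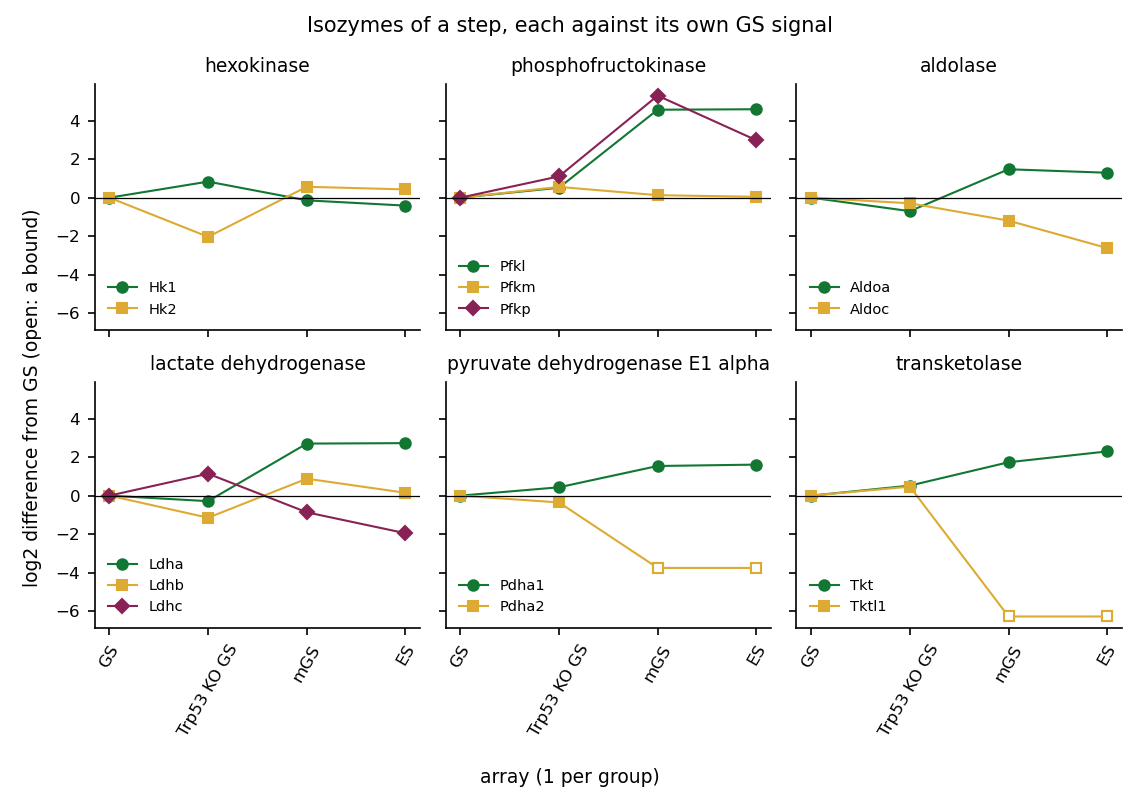
Log2 difference of each isozyme gene from its own GS signal on the knockout GS, mGS and ES arrays, for 6 steps, 1 array per group; open symbols are bounds and lines only join the points of 1 gene. Pfkl and Pfkp lie above Pfkm, Aldoa above Aldoc, Ldha above Ldhc, Pdha1 above Pdha2 and Tkt above Tktl1 on mGS and ES.

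Between ES and mGS few of these genes reached 2-fold, as was so for all genes compared. None of 31 was at least 2-fold higher on ES, against 6.9% of all genes compared, and 3 were at least 2-fold lower, against 5.13% of all genes. The 3 were Pfkp at 4.98-fold, Aldoc at 2.68-fold and Ldhc at 2.12-fold lower. By its other probe set Ldhc was at least 1.39-fold lower. Ldhb was 1.66-fold lower by the probe set used and 2.53-fold lower by 1 of its others. The median log2 difference was -0.02 for the 31 genes and 0.003 for all genes. Pfkl, Ldha, Pgk1, Pgam1, Gapdh and Slc2a1 each lay within 1.09-fold between the 2 arrays. Among the probe sets used, the widest upward difference was that of Pdk1, at 1.76-fold. The third probe set of Pgk1 was 1.96-fold higher on ES. This comparison crosses the split in the dap control, and the fibroblast marker sum was 24152 on ES against 2401 on mGS. The count of 3 rests on the floor and the probe set, since it was 1 when the probe sets of each gene were averaged and 6 with no floor.

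Between knockout GS and GS 6 of 31 genes were at least 2-fold higher, against 9.76% of all genes compared, and 2 were at least 2-fold lower, against 6.93%. The higher ones were Pdk1 at 3.09-fold, Pfkfb3 at 2.83-fold, Slc2a3 at 2.65-fold, Ldhc at 2.20-fold, Pfkp at 2.15-fold and Eno3 at 2.03-fold. The other probe sets of Pdk1 gave 2.36-fold, 1.24-fold and 1.13-fold, and the other of Pfkfb3 gave 1.67-fold. Those of Slc2a3 ran from 1.76-fold to 4.10-fold. The lower ones were Hk2 at 4.09-fold and Ldhb at 2.22-fold. No gene of the pentose phosphate branch reached 2-fold, and neither Pgk1 nor Ldha did, at 1.10-fold higher and 1.22-fold lower. The median log2 difference was 0.30 for the 31 genes and 0.07 for all genes. The array features that move with this comparison are the split in the dap control and the lower bioC control on knockout GS, and their part was not tested. Strain and genotype cannot be told apart, since the knockout label names ICR and the strain of the GS cells is not given. Some spermatogonial and meiotic markers given elsewhere in the text also differed between these 2 arrays. Scaling mattered for the all-gene balance here: 1135 genes were higher and 805 lower after quantile normalization, and 838 higher and 1072 lower after centring on array medians, which moved the median of all genes by -0.16. Hk2 and Ldhb were each the lowest on knockout GS among the 4 arrays. Eno3 and Pfkfb3 were past 2-fold in 8 and 9 of 11 alternative settings. Trp53, the targeted gene, was not analysed here, and the knockout label was therefore not checked.

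The mGS and ES arrays were also set against knockout GS. On mGS 15 of 32 genes were at least 2-fold higher than on knockout GS, against 17.3% of all genes, and 4 were at least 2-fold lower, against 21.7%. On ES 14 of 31 were at least 2-fold higher, against 18.8% of all genes, and 6 were at least 2-fold lower, against 21.5%. Hk2 was 6.06-fold and Ldhb 4.08-fold higher on mGS than on knockout GS, although neither reached 2-fold against GS. Pfkl was 16.6-fold higher on mGS than on knockout GS, Pgk1 8.67-fold and Ldha 7.95-fold. Rpia was 6.05-fold lower, and Tktl1 at least 107-fold by the probe set used and 57.4-fold by the second. These comparisons share the mGS and ES arrays with those above.

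Taken over all 4 arrays, 11 of 33 genes were at least 2-fold higher on both mGS and ES than on both GS and knockout GS, against 7.65% of the 12897 genes that reached the floor somewhere, and 3 were at least 2-fold lower on both, against 8.38%. The 11 were Slc2a3, Pfkl, Pfkp, Aldoa, Tpi1, Pgk1, Ldha, Pdha1, Slc16a3, Tkt and Rpe, and the 3 were Pdk3, Tktl1 and Rpia. By the smallest gap between the pairs, Pfkl was highest at 16.6-fold, followed by Pgk1 at 8.67-fold, Ldha at 6.51-fold and Slc16a3 at 5.20-fold or more. Just inside the threshold were Rpe and Pdha1, both at 2.15-fold, and Pdk3 at the threshold itself among the lower, and just outside it was Slc2a1 at 1.96-fold. With any gap, 17 of the 33 were higher without overlap, against 26.9% of genes, and 7 were lower without overlap, against 31.8%. The pairs overlapped for Pfkm, Pfkfb3, Pgam2, Eno2, Eno3, Pdk1, Slc16a1, Pgd and Pgls. In the 2 other ways of pairing the 4 arrays, no gene of the 33 was separated by 2-fold, where few of the 12897 genes were: 32 and 33 in the 2 directions of one pairing and 25 and 18 in those of the other. Leaving out probe sets that may bind several transcripts lowered the 11 to 7, because Pfkl, Aldoa, Tpi1 and Ldha then had no probe set above the floor.

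**Figure D4:**
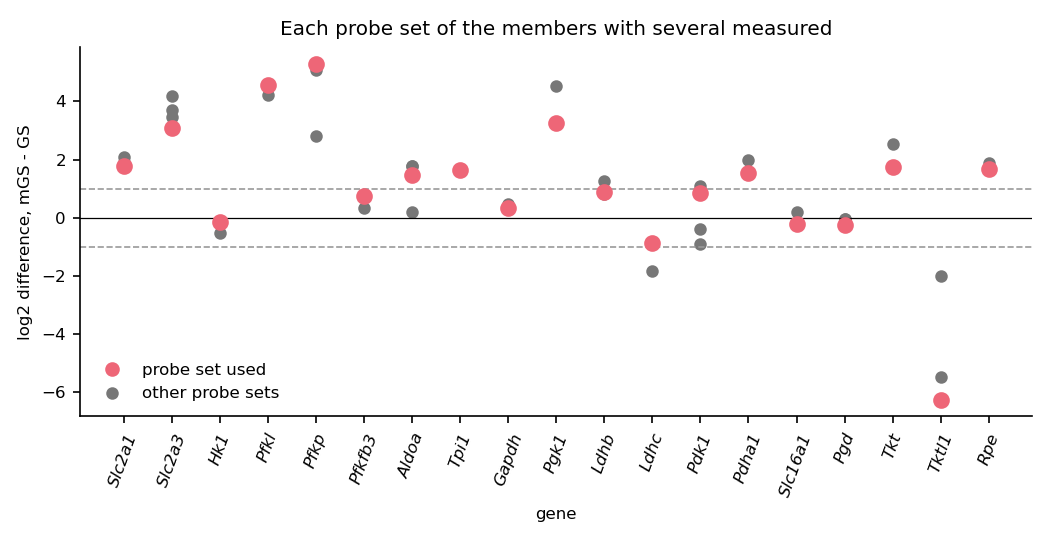
Log2 difference of mGS from GS for every probe set above the floor of the genes with several; large points are the probe set used, small points the others, and dashed lines mark 2-fold. The probe sets of Slc2a3, Pfkl, Pfkp, Pgk1 and Tktl1 lie on 1 side of 0, and those of Pdk1 lie on both.

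Neighbouring pathways were counted in the same way. Among 17 other isozymes and pyruvate dehydrogenase genes compared, 1 was at least 2-fold higher on mGS than on GS and 2 were lower, against 15.3% and 16.5% of all genes, with a median log2 difference of -0.29. The lower ones were Pdha2 and Pdp1, a phosphatase that switches pyruvate dehydrogenase on, at 6.41-fold lower. The higher one was Pdk4, at least 2.08-fold. Among 23 genes of the tricarboxylic acid cycle and its links 1 was higher and 2 were lower, against the same shares, with a median of -0.17. On ES the medians of these lists were -0.28 and -0.18, against -0.03 for all genes. Mdh1, the cytosolic malate dehydrogenase, was 2.72-fold higher on mGS and 3.17-fold higher on ES than on GS, and Acly, which makes acetyl-CoA in the cytosol, was 2.04-fold and 2.71-fold lower. Me1, the cytosolic malic enzyme, was 3.51-fold lower on mGS and 1.12-fold lower on ES.

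A hypoxia list held the hypoxia factors, which drive many glycolytic genes, their regulators and genes known to respond to them. Of 23 compared on mGS, 3 were at least 2-fold higher than on GS and 5 were lower, near the 15.3% and 16.5% of all genes, with a median of 0.09. Epas1, which encodes the hypoxia factor HIF-2 alpha, read 329 on GS, 117 on knockout GS, 3636 on mGS and 1789 on ES. Vegfa, a growth factor for vessels, was 3.64-fold higher on mGS, and Slc16a3, which also belongs to the list of 37, was the third. The 4 lowest were Ddit4, Vhl, Plod2 and Egln1, by 2.77-fold to 3.81-fold, of which Vhl and Egln1 are known to restrain the factors. On ES Vhl was 2.39-fold and Egln1 1.75-fold lower than on GS. Egln3, another of the regulators listed, was 1.56-fold higher on mGS and 1.20-fold higher on ES than on GS. Hif1a, another of the factors, read 3765.5 on GS, 5019 on knockout GS, 4771 on mGS and 4819 on ES. On ES the median was -0.28, with 4 of 24 higher and 5 lower, against 17.4% and 17.2% of all genes. All genes had medians of -0.04 on mGS and -0.03 on ES.

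**Figure D5:**
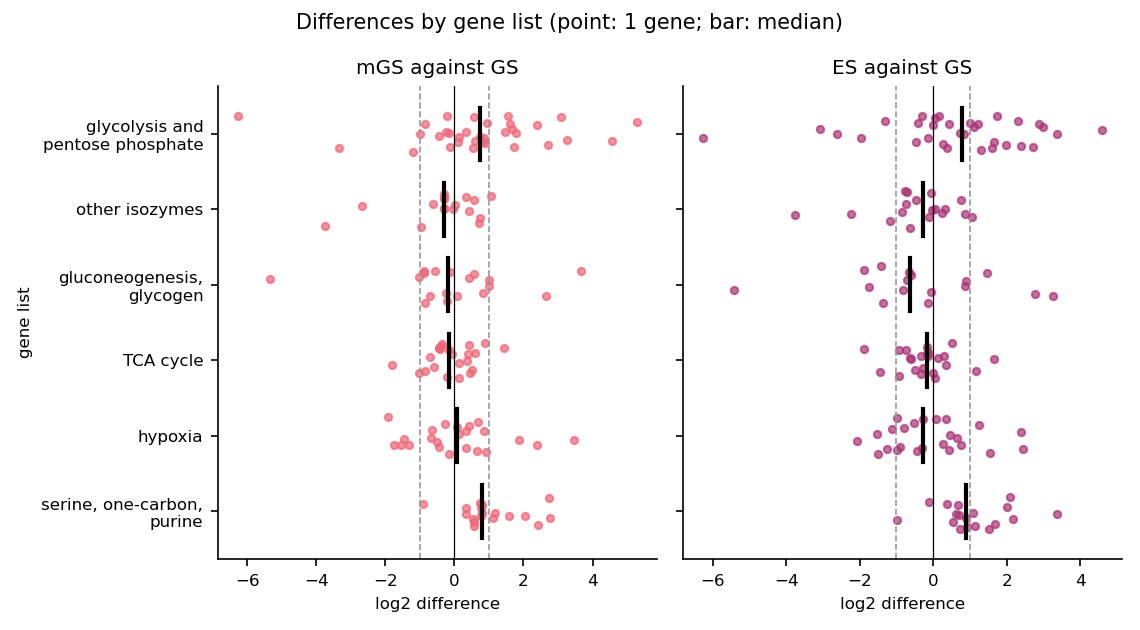
Log2 difference of each gene from GS (points) and the median of each list (bars) for mGS and ES, 1 array per group; dashed lines mark 2-fold. The medians of the 37 genes lie at 0.74 and 0.78, those of the serine, one-carbon and purine list at 0.79 and 0.90, and those of the other 4 lists between -0.63 and 0.09.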

How the data were processed

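The authors deposited 1 linear intensity per probe set and array for 45101 probe sets, per the values in the file. The mean of each array, with 2% trimmed from either end, was 500, so the arrays had been scaled. Which software summarised the probes was not given in the sources used here. Per the labels' protocols, Trizol-extracted total RNA was made into biotin-labelled cRNA.

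Controls were set aside except 3 Gapdh probe sets, leaving 45040. Quantile normalization of log2 values across the 4 arrays followed, and it hides any change in total RNA. Gene names came from the platform annotation, with symbols updated to RefSeq (GRCm38.p6) by gene identifier: 34948 had 1 symbol, 932 several and 9160 were not listed. A gene took its probe set of highest mean. Of the 34 genes of the list measured, 14 had 1 probe set only, among them Hk2, Pkm, Ldha, Pdk3, Slc16a3 and Rpia. Each array's median, 6.37 as log2, served as the floor. Genes were counted at 2-fold. No test was possible with 1 array per group, and the number of arrays limits the precision. The 11 alternatives concerned normalization, probe sets, floor and a pseudocount of 32.

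The 37 genes, the 5 related lists and the markers were chosen with earlier results of these data known. All 37 genes are named, and of other lists up to 4 genes per direction with the largest differences of 2-fold or more, plus the isozyme partners. The markers Col1a2, Etv5, Gfra1, Ret, Sycp1, Sycp3 and Tagln were singled out after their values were seen. So were the genes Egln3, Hif1a and Phgdh and second probe sets. Steps were tested on simulated data. Trp53 was not analysed here. Python 3.11.15 with numpy 2.4.6, pandas 2.3.3 and matplotlib 3.10.9 was used.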

Additional observations from a re-analysis of the deposited data

How the results depend on the processing

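Every result rests on 1 array per group, on probe sets that may bind other transcripts and on a floor that turns low signals into bounds. Of the counts and medians of the 37 genes under other settings, 223 stayed within 1.5 times or the spread between probe sets and 6 did not. The genes at least 2-fold lower on ES than on mGS, 3 in number, became 1 when each gene's probe sets were averaged, 5 with a floor at the 30th percentile and 6 with no floor. Without probe sets whose names mark that they may bind several transcripts, the genes lower on knockout GS than on GS went from 2 to 1. Those higher on ES than on knockout GS went from 14 to 9, and those higher on mGS and ES in the division by medium from 11 to 7. That setting measures fewer genes: Aldoa, Tpi1, Ldha and Ldhb had no probe set left, and Pfkl only 1 under the floor on all arrays. Each of these drops came from the loss of these genes. Of the differences of single genes, 2013 stayed, 92 moved and 2 reversed, and of the counts and medians of the related lists 921 stayed and 114 moved. The log2 difference of ES from mGS for Aldoc was -1.42 and became 0.86 with the mean of its probe sets, of which 1 is under the floor on all arrays. That of ES from knockout GS for Hk1 was -1.25 and became 0.032 with a probe set annotated to 6 genes. Normalization without the knockout GS array, chosen after seeing the data because of its lower hybridisation control, gave 12 higher and 4 lower for mGS against GS and 15 and 5 for ES against GS. No paired analysis was possible because each group has 1 array, and for the same reason none could be left out.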

Other observations

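The list of serine, one-carbon, purine and amino acid genes, which lead from glycolysis to nucleotides, had 7 of 18 genes at least 2-fold higher on mGS than on GS and 8 of 18 on ES, with none lower on either, against 15.3% higher and 16.5% lower among all genes on mGS and 17.4% and 17.2% on ES. Its median log2 difference was 0.79 on mGS and 0.90 on ES. Mthfd1l, a mitochondrial one-carbon enzyme, read 269 on GS, 160 on knockout GS, 1810.3 on mGS and 2756 on ES. Psat1, an aminotransferase of the serine branch, read 2030 on GS, 3879 on knockout GS, 10771 on mGS and 9129 on ES. Phgdh, which opens that branch, went the other way by less than 2-fold, at 10449 on GS, 5839 on knockout GS, 5545.0 on mGS and 5319 on ES. Got1, the cytosolic aspartate aminotransferase, was 6.87-fold higher on mGS and 4.27-fold higher on ES than on GS, and Prps2, which turns ribose 5-phosphate into the precursor of purines, 4.14-fold and 3.21-fold. On knockout GS, Mthfd1, Adsl and Prps2 were 2.57-fold, 2.28-fold and 2.17-fold lower than on GS, and Psph was 2.07-fold higher.

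Among 18 genes of glycogen use and gluconeogenesis, mGS exceeded GS at least 2-fold in 2 and was lower in 2, against 15.3% and 16.5% of all genes. On ES 3 of 16 were higher and 5 lower, against 17.4% and 17.2% of all genes. The median log2 difference on ES was -0.63, against -0.03 for all genes. Pygl, the liver-type glycogen phosphorylase, read 4478 on GS, 3688 on knockout GS, 109 on mGS and 104 on ES. Pck2, the mitochondrial phosphoenolpyruvate carboxykinase, read 168 on GS, 194 on knockout GS, 1061 on mGS and 1594 on ES. Pgm2, a phosphopentose and phosphoglucose mutase, was under the floor on GS and knockout GS and read 1053 on mGS and 564 on ES.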
